A study of Macaca fascicularis with 15 samples.

Results

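The genes described here serve the retinal pigment epithelium and the visual cycle: RPE65, LRAT, RDH5, RDH10, RGR, STRA6, TTR, SLC16A8 and KCNJ13. They were taken by name from the deposited tables, where all 9 are present among 12995 entries, and all 9 passed the filter on low values. RNA sequencing was done on ocular tissue of the cynomolgus monkey (Macaca fascicularis), all of it labelled wild type, with each sample prepared from 1 eye. Tables were analysed for 4 libraries of central retina, 3 of peripheral retina, 2 of whole retina and 2 of whole eye, 11 of 15 sample records; the other 4 records, not analysed here, carry the same names as the whole retina and whole eye libraries. Central retina is the part that holds the macula, and the headers of those tables use that word. The labels give neither age, sex nor animal, and biological replicates are stated for eye and retina samples without saying whether the regions come from separate animals, so the p-values may reflect technical spread between samples rather than spread between animals.

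The retinal pigment epithelium is a single layer of pigmented cells between the photoreceptors and the choroid. Light converts the 11-cis-retinal of the visual pigments to the all-trans form, and the pigment epithelium turns it back. Retinol enters the cell from the blood or from the photoreceptors, is esterified by LRAT, isomerised by RPE65 and oxidised by RDH5 to 11-cis-retinal. The layer also moves lactate and ions between retina and choroid.

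Before the members are compared, the tissues need to be placed by the markers of other cells. Lens and cornea markers (5 of 8 listed genes in the tables) summed to 24 and 41.9 in the whole retinas, against 1027 and 1055 in the whole eyes. They summed to at most 0.59 in central retina, where MIP and LIM2 were at 0, and to at most 3.28 in peripheral retina. Markers of choroid and stroma (8 of 9) summed to 400 and 420 in whole retina and to between 463 and 643 in whole eye, but to only 32.6 to 46.3 in the central and 46.8 to 73.5 in the peripheral libraries. KDR alone gave 25.55 to 36.84 of the central and 36.91 to 55.53 of the peripheral sums. COL1A1, COL1A2, COL3A1 and DCN held at most 0.827% of their whole retina mean in either region, and LUM, PECAM1 and VWF between 6.38% and 24.8%. The tissue labelled whole retina thus carried stroma genes near the level of the whole eye, and the regional retina did not. Values carry no stated unit, and the number of reads behind them is not given; between 171 and 501 entries per library were listed at 0, and no member was at 0 in any library. Levels set side by side across libraries rest on the authors' scaling, which is not stated.

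**Figure D1:**
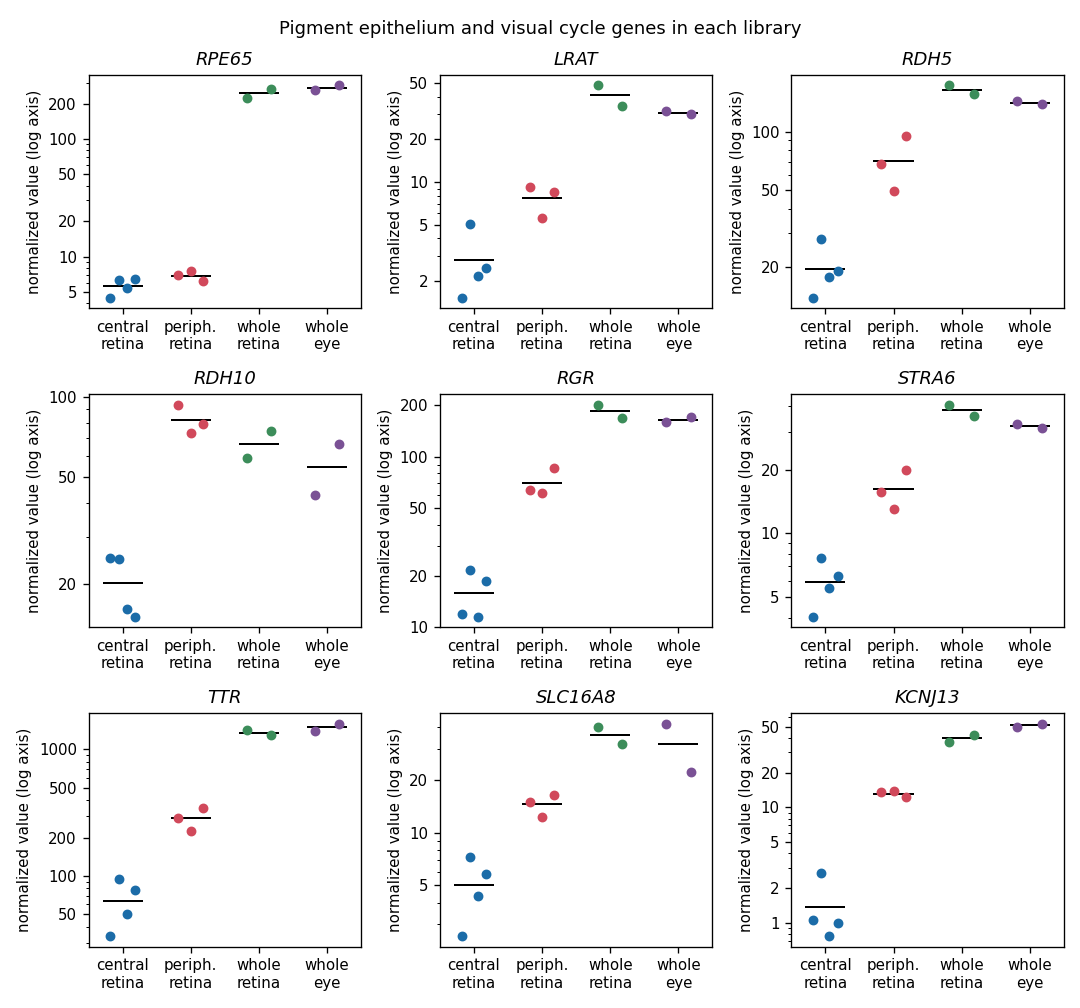
Normalized value (log axis) of each of the 9 genes in every library, grouped by tissue from left to right as central retina, peripheral retina, whole retina and whole eye. Points are libraries and bars are group means; RDH10 alone has its highest mean in peripheral retina, at 82.0, and RPE65 alone has overlapping central and peripheral libraries.

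Central retina held less RNA of the pigment epithelium and visual cycle genes than peripheral retina. Of the 9 members, 8 were lower in central retina by limma at an adjusted p under 0.05 and 0 were higher, where 8.76% of the 11933 tested genes were lower. With an unadjusted p under 0.05, limma also gave 0 higher. In the same 8 genes every central library lay below every peripheral library, against 15.6% of all tested genes. The median log2 difference over the 9 was −1.78, beside −0.01 over all tested genes. In bulk tissue, fewer cells of a type and less RNA per cell cannot be told apart. The direction was the same for each of the 9 genes in all 22 alternative analyses.

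STRA6 and TTR act at the entry of retinol into the pigment epithelium. STRA6 encodes the cell-surface receptor that takes up retinol from its binding protein in blood. It was 4.05, 7.70, 5.51 and 6.30 in central retina replicates 1 to 4, against 15.73, 12.97 and 19.96 in peripheral retina replicates 1 to 3. The lowest peripheral library was above the highest central one, and the log2 difference was −1.33 (SE 0.19, limma adjusted p = 0.000598). TTR encodes transthyretin, which carries that binding protein and is made in the eye chiefly by the pigment epithelium. TTR values were 33.81, 95.13, 50.67 and 77.44 in central retina, against 286.99, 227.45 and 345.20 in peripheral retina. The central mean was 0.224 times the peripheral mean, with a log2 difference of −2.22 (SE 0.29, limma adjusted p = 0.000445). Central libraries differed by as much as 2.81 times among themselves for TTR, and peripheral libraries by 1.52 times.

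LRAT and RPE65 carry out the esterification and the isomerisation. LRAT, the acyltransferase that stores retinol as esters, was low in the retinal regions. Its values were 1.53, 5.08, 2.18 and 2.49 in central retina, against 9.25, 5.60 and 8.44 in peripheral retina. The groups did not overlap, but the highest central library came close to the lowest peripheral one; the log2 difference was −1.25 (SE 0.27, limma adjusted p = 0.00762). Over the 22 alternatives the limma adjusted p of LRAT was at most 0.0442.

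RPE65, the isomerase that gives the visual cycle its 11-cis product, stood apart from the others. Under its own name it was 4.48, 6.35, 5.35 and 6.40 in central retina, against 7.01, 7.48 and 6.18 in peripheral retina. The groups overlap, and the log2 difference of −0.26 had a 95% interval of −0.54 to 0.03 (limma adjusted p = 0.185). In whole retina RPE65 was 223.79 and 267.92, and in whole eye 260.90 and 285.76. Central retina was thus listed at 2.30% and peripheral retina at 2.80% of the whole retina mean, the lowest peripheral share of the 9 genes.

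The row RPE names ribulose-5-phosphate-3-epimerase, an enzyme of the pentose phosphate pathway. It passed between central and peripheral retina, where RPE65 did not (log2 difference −2.20, SE 0.40, limma adjusted p = 0.00293). It was 9.90, 33.48, 11.13 and 8.35 in central retina, against 100.45, 57.41 and 47.58 in peripheral retina. In whole retina it was 15.40 and 17.44, and in whole eye 17.31 and 22.24. Central retina was not told apart from whole retina under RPE (limma adjusted p = 0.646), where all 9 members were lower. Peripheral retina was 4.17 times the whole retina mean under RPE (log2 difference 1.93, SE 0.48, limma adjusted p = 0.00934). That call was lost without whole retina replicate 1, where the log2 difference was 1.84. RPE65 exceeded RPE by 12.8 to 15.4 times in every whole retina and whole eye library. In every central and peripheral library the order was turned round, with RPE65 at 0.0698 to 0.766 times RPE. Both names begin with the same letters. Whether the entries were exchanged in the regional tables cannot be told from the tables.

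RPE65 was also computed with the row RPE taken into account. RPE exceeds RPE65 in every regional library, so both calculations follow the RPE row there and are no independent evidence on RPE65. The 2 rows summed to between 14.38 and 39.83 in central retina and between 53.76 and 107.46 in peripheral retina, with a log2 difference of −1.84 (SE 0.33, limma adjusted p = 0.00266). Against whole retina, at a mean sum of 262, the sum was 8.14% in the central and 28.7% in the peripheral libraries. With the rows exchanged in the 7 regional libraries, an alternative chosen after the values were seen, the central against peripheral log2 difference of RPE65 was −2.20 (SE 0.40, limma adjusted p = 0.00283). KCNJ13 is the only other member whose name continues that of another row, KCNJ1, and that row stayed between 0.15 and 0.97 in all 11 libraries.

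**Figure D2:**
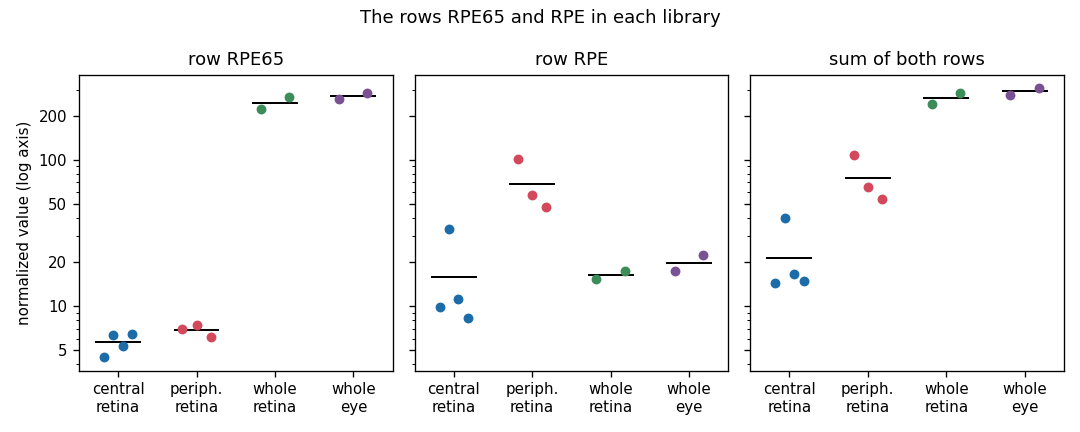
Normalized value (log axis) in every library of the row RPE65, the row RPE and their sum, with tissues from left to right as central retina, peripheral retina, whole retina and whole eye. Points are libraries and bars are group means; the sum averaged 21.4 in central retina, 75.4 in peripheral retina, 262 in whole retina and 293 in whole eye.

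RDH5 and RDH10 encode dehydrogenases that oxidise retinol. RDH5, the 11-cis-retinol dehydrogenase that closes the cycle, was 14.00, 27.96, 17.76 and 19.15 in central retina, against 67.77, 49.37 and 94.50 in peripheral retina. No libraries overlapped, and the log2 difference was −1.78 (SE 0.23, limma adjusted p = 0.000415). RDH10, found in pigment epithelium and Müller glia and also known for retinoic acid synthesis in the embryo, was 24.85, 24.80, 16.00 and 15.03 in central retina, against 93.68, 73.33 and 79.09 in peripheral retina. The central mean was 0.246 times the peripheral mean, a log2 difference of −2.0 (SE 0.21, limma adjusted p = 0.000145).

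RGR is a non-visual opsin of the pigment epithelium and Müller glia that binds all-trans-retinal. RGR values were 11.90, 21.55, 11.53 and 18.73 in central retina, against 64.07, 61.02 and 86.39 in peripheral retina. Each peripheral library was well above each central one, with a log2 difference of −2.11 (SE 0.21, limma adjusted p = 0.000111).

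The remaining members work at the cell membrane and take no part in the retinoid reactions. SLC16A8 encodes MCT3, the transporter that passes lactate out of the pigment epithelium towards the choroid. It was 2.58, 7.31, 4.33 and 5.84 in central retina, against 14.90, 12.32 and 16.40 in peripheral retina (log2 difference −1.43, SE 0.28, limma adjusted p = 0.00469). KCNJ13 encodes the potassium channel Kir7.1 of the apical membrane. KCNJ13 values were 1.05, 2.71, 0.77 and 1.00 in central retina, against 13.50, 13.77 and 12.21 in peripheral retina. Its central mean was 0.105 times the peripheral mean, the lowest ratio of the 9, and its log2 difference was −2.63 (SE 0.21, limma adjusted p = 5.2e-05). Since 1 was added to every value before the logarithm, the difference of so low a gene is understated, and with 0.1 added it was −3.32.

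**Figure D3:**
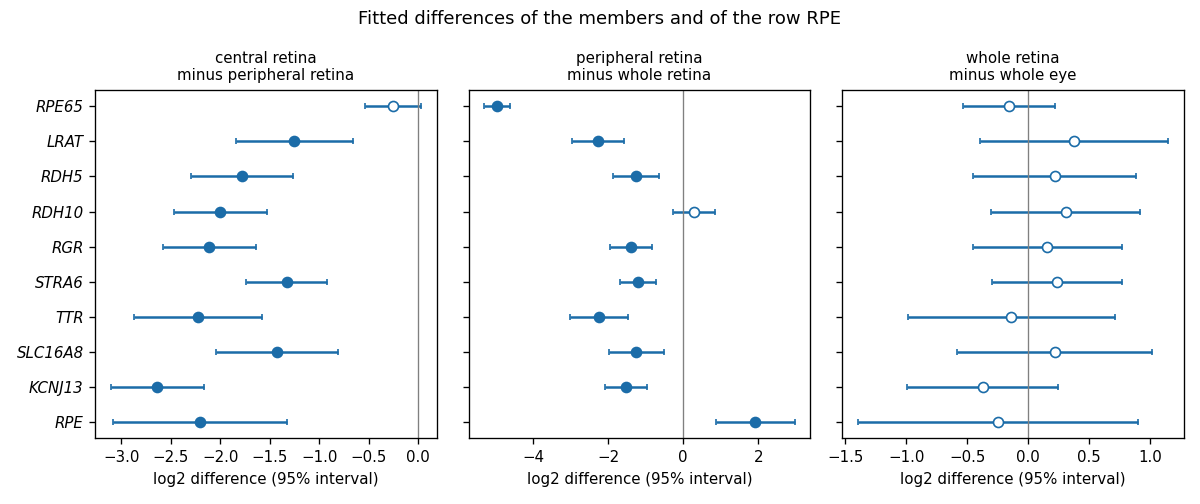
Fitted log2 difference with its 95% interval for the 9 genes and the row RPE in central minus peripheral retina, peripheral minus whole retina, and whole retina minus whole eye. Filled points have a limma adjusted p under 0.05; in the first panel RPE65 alone is open, in the second RDH10 alone, and in the third all are open.

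The size of the difference was also set out gene by gene. Set against the mean of the other 8 genes within each library, KCNJ13 was 1.09 log2 units lower in central than in peripheral retina, and its libraries did not overlap. TTR was 0.63 and RGR 0.50 units lower on the same measure, LRAT 0.47 and STRA6 0.38 units higher, and RPE65 1.59 units higher, all without overlap. The measure of RDH5, RDH10 and SLC16A8 overlapped between the regions. The exact permutation test (two-sided, 4 against 3 libraries) gave p = 0.0571 for each gene without overlap. This is the smallest p the design allows, and 0.0857 adjusted over the 9 genes, so the test could not pass and the values are a description. For each gene but RPE65, the mean of the others includes the RPE65 row.

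Within the regions, several members were highest or lowest in the same library. The same count over all tested genes was not made, so it may describe the libraries rather than the members. In whole eye the highest values were split, with 4 members in replicate 1 and 5 in replicate 2. Central retina replicate 2 was the highest central library for 7 of the 9 genes, with RPE65 and RDH10 as the exceptions, and replicate 1 was the lowest for 6. Peripheral retina replicate 2 was the lowest peripheral library for 7 of the 9, and replicate 3 the highest for 5. Without central retina replicate 2, the log2 difference of KCNJ13 was −2.87 (limma adjusted p = 2.04e-06) and that of TTR −2.45 (limma adjusted p = 0.000346).

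Peripheral retina in turn held less of most members than whole retina. Of the 9 genes, 8 were lower and 0 higher by limma, with 0 higher also at an unadjusted p under 0.05, where 24.3% of the tested genes were lower. The median over the members was −1.39, beside −0.08 over all tested genes. That background depends on scaling: limma called 1173 genes higher and 2904 lower as deposited, 1742 and 2482 after median of ratios scaling, and 3114 and 2090 after quantile normalization, yet 8 members were lower in each case. Without whole retina replicate 1 the call on SLC16A8 was lost (limma adjusted p = 0.0904), which left 7. The comparison of central with whole retina uses the same whole retina libraries. There 9 of 9 members were lower by limma, against a background of 29.7%, with a median of −3.50. Other marker lists also summed higher in whole retina than in the regions, melanin synthesis genes to 721 and 828 and ciliary body and vitreous genes to 567 and 619. OPTC alone gave 500.91 and 545.94 of the ciliary body and vitreous sums. Of the 4 genes in that list, limma called 2 lower and 0 higher in peripheral than in whole retina. COL2A1 stood at 113% of its whole retina mean in peripheral retina. The pigment epithelium is itself pigmented, so the melanin list does not set other cells apart from it. The part of the cells behind these lists in the members' differences was not tested.

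The amount left in the regions varied between genes. RDH5 was 172.71 and 155.60 in whole retina and 143.65 and 137.82 in whole eye, so that peripheral retina held 43.0% and central retina 12.0% of the whole retina mean. STRA6, at 40.47 and 35.87 in whole retina and 32.75 and 31.56 in whole eye, kept 42.5% in peripheral and 15.4% in central retina. SLC16A8, at 39.92 and 31.83 in whole retina and 41.70 and 22.27 in whole eye, kept 40.5% and 14.0%. RGR, at 202.28 and 168.16 in whole retina and 159.96 and 170.24 in whole eye, kept 38.1% and 8.60%. These 4 genes therefore kept similar shares in peripheral retina, and their limma adjusted p for peripheral against whole retina lay between 0.00151 and 0.0137.

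KCNJ13, TTR and LRAT kept less. KCNJ13 was 36.63 and 42.62 in whole retina and 50.07 and 52.91 in whole eye, and kept 33.2% in peripheral and 3.49% in central retina. TTR was 1421.87 and 1289.14 in whole retina and 1392.69 and 1591.30 in whole eye, and kept 21.1% and 4.74%. LRAT was 48.08 and 34.20 in whole retina and 31.90 and 30.00 in whole eye, and kept 18.9% and 6.85%. For these 3 genes the limma adjusted p for peripheral against whole retina was 0.000893, 0.000519 and 0.000258.

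RDH10 departed from this order. It was 58.88 and 74.86 in whole retina and 42.94 and 66.47 in whole eye, so that its peripheral mean stood at 123% of the whole retina mean. The log2 difference of 0.29 had an interval of −0.27 to 0.85 (limma adjusted p = 0.412). Against whole eye the log2 difference was 0.60 (SE 0.25, limma adjusted p = 0.0815), and it passed after quantile normalization (limma adjusted p = 0.0161), after median of ratios scaling (0.023) and without whole eye replicate 2 (0.0432). Set against the mean of the other 8 genes within a library, RDH10 was 2.31 log2 units higher in peripheral than in whole retina without overlap (exact permutation p = 0.2, the smallest that 3 against 2 libraries allow).

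**Figure D4:**
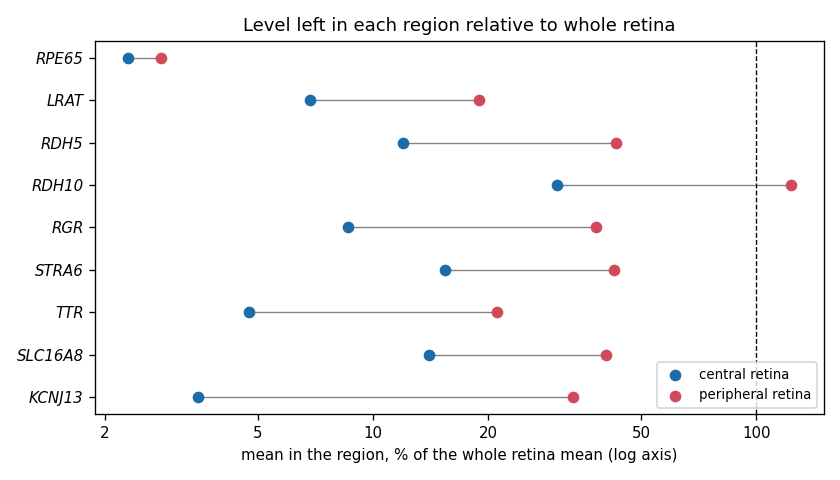
Mean of each gene in central and peripheral retina as a percentage of its whole retina mean (log axis; the dashed line marks 100%). Peripheral retina lies above central retina for each gene, from 2.80% for RPE65 under its own name to 123% for RDH10.

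Whole retina and whole eye were not told apart by these genes. By limma 0 of the 9 passed, also at an unadjusted p under 0.05, where 2.27% of all tested genes were called in either direction. The fitted log2 differences ran from −0.37 for KCNJ13 to 0.38 for LRAT. The intervals were wide: for TTR −0.99 to 0.71, and for LRAT −0.39 to 1.15, so differences of up to about that size were not detectable. Against whole eye, 9 members were lower in central retina (background 34.2%) and 8 in peripheral retina (background 27.6%), with RDH10 as the exception. The peripheral call on SLC16A8 (limma adjusted p = 0.0298) was lost in 6 alternatives, among them median of ratios scaling (0.062), and without whole eye replicate 1 its limma adjusted p was 0.276. The call on RDH5 was lost without either whole eye library (limma adjusted p = 0.0683 and 0.056).

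Ordered by mean, 8 of the 9 genes ran from central through peripheral retina to the whole retina and whole eye. For STRA6, RDH5, RGR, SLC16A8 and LRAT whole retina was highest, above whole eye; for TTR, KCNJ13 and RPE65 whole eye was highest. That last step did not pass for any of the 8, with limma adjusted p from 0.686 to 0.919. The steps from central to peripheral retina and from peripheral retina to the next tissue passed for 7 of the 8, with RPE65 missing the first. For RDH10 the order was central retina, whole eye, whole retina and peripheral retina, and only the first step passed (limma adjusted p = 0.000559).

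Other genes of the retinoid cycle were described by a list of 13, of which 9 were in the tables. By limma 5 were lower and 0 higher in central than in peripheral retina, where 8.76% of all tested genes were lower. At an unadjusted p under 0.05, 0 were higher, and the median was −0.48. RLBP1, the carrier of 11-cis-retinal in pigment epithelium and Müller glia, averaged 199.8 ± 15.9 in central retina (SD, n = 4) and 444 ± 81.7 in peripheral retina (SD, n = 3; limma adjusted p = 0.000284). ABCA4, the retinoid transporter of photoreceptor outer segments, averaged 130 ± 31.1 in the central and 206 ± 8.82 in the peripheral libraries (limma adjusted p = 0.0104). DHRS3, a retinal reductase gene, averaged 16.8 ± 0.72 in the central and 25.7 ± 4.60 in the peripheral libraries (limma adjusted p = 0.0234). RDH12 of the photoreceptors, named after its values were seen, was at 461 ± 80.7 in the central and 638 ± 66.2 in the peripheral libraries (limma adjusted p = 0.0357). The count of 5 fell to 2 without peripheral retina replicate 3 and to 3 without central retina replicates 1, 3 or 4 or peripheral retina replicates 1 or 2.

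Set against whole retina, RLBP1 averaged 444 in peripheral and 545 in whole retina (limma adjusted p = 0.18), so that peripheral retina held 81.5%. ABCA4 averaged 206 in peripheral and 144 in whole retina (limma adjusted p = 0.0546). DHRS3 averaged 25.7 in peripheral and 62.8 in whole retina (limma adjusted p = 0.000307).

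Among other pigment epithelium genes, 11 of 16 listed were in the tables, and by limma 8 were lower and 1 higher in central retina, with a median of −0.89. Over all 11933 tested genes, limma called 1045 lower and 1493 higher in central retina. GPNMB, a melanosome glycoprotein gene, averaged 0.87 ± 0.26 in the central and 14.0 ± 1.29 in the peripheral libraries (limma adjusted p = 2.05e-06). SLC6A20, an imino acid transporter gene, averaged 2.78 ± 1.14 in the central and 16.1 ± 1.36 in the peripheral libraries (limma adjusted p = 0.00016). DAPL1 averaged 39.8 ± 13.3 and 196 ± 36.3 (limma adjusted p = 0.000209), and CLDN19, a tight junction gene, 0.84 ± 0.29 and 3.18 ± 0.79 (limma adjusted p = 0.000531). The names SLC6A20, DAPL1 and CLDN19 continue those of other rows, as RPE65 does. The higher gene was MITF, a pigment cell transcription factor named after its values were seen, at 6.33 ± 0.50 in the central and 3.65 ± 0.37 in the peripheral libraries (limma adjusted p = 0.0205). The count fell to 5 lower and 0 higher without peripheral retina replicate 2.

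**Figure D5:**
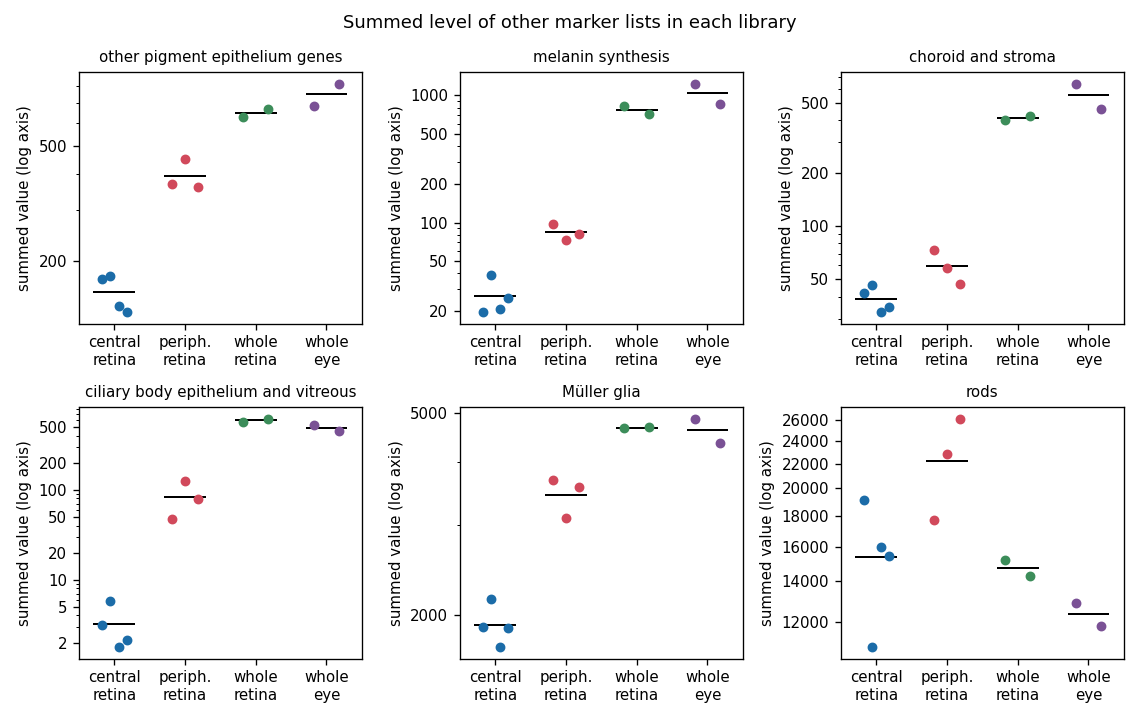
Summed normalized value (log axis) of 6 marker lists in every library, with tissues from left to right as central retina, peripheral retina, whole retina and whole eye. Points are libraries and bars are group means; 5 lists are lowest in central retina, and the rod list overlaps between central retina and each other tissue.

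Several other marker lists moved in the same direction between the regions, and their part in the members' differences was not tested. Melanin synthesis genes (8 of 10 in the tables) summed to 19.7 to 39.0 in the central and 73.2 to 97.9 in the peripheral libraries. By limma 6 of 8 were lower, where 8.76% of all tested genes were, and 0 higher, also at an unadjusted p under 0.05. MLANA averaged 0.09 ± 0.061 in the central and 3.68 ± 0.51 in the peripheral libraries, SLC45A2 0.33 ± 0.081 and 2.87 ± 0.13, and SILV 0.16 ± 0.052 and 5.32 ± 3.72. TYR, whose name begins other names, was at 0 to 0.12 in the central and 1.48 to 2.70 in the peripheral libraries. The limma adjusted p of these 4 genes lay between 8.06e-06 and 0.000543. TYRP1, named after its values were seen, made up most of the sum, at 12.13 to 28.75 in the central and 45.53 to 68.95 in the peripheral libraries (limma adjusted p = 0.00147). The other 3 genes, also named after their values were seen, averaged 5.83 for SLC24A5, 1.55 for GPR143 and 0.15 for DCT in central retina. In peripheral retina they averaged 8.92, 1.27 and 1.71. DCT was called lower in central retina (limma adjusted p = 0.0139), while SLC24A5 and GPR143 did not pass (limma adjusted p = 0.0817 and 0.909). In peripheral retina the 8 melanin genes held between 2.20% (SILV) and 33.3% (SLC24A5) of the whole retina mean, with TYRP1 at 24%. Only TYRP1 and SLC24A5 lay within the 18.9% to 43.0% of STRA6, TTR, LRAT, RDH5, RGR, SLC16A8 and KCNJ13. The others lay below it, with MLANA at 2.56%, DCT at 3.24%, TYR at 4.80%, SLC45A2 at 14.9% and GPR143 at 16.6%. RPE65, at 2.80%, and RDH10, at 123%, also lay outside that range.

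Müller glia express RGR and RDH10 as well, and their markers (11 of 11) summed to 1728 to 2148 in the central and 3097 to 3679 in the peripheral libraries. Of the 11, limma called 8 lower, against 8.76% of all tested genes, and 0 higher, 0 also at an unadjusted p under 0.05. RLBP1, given above with the retinoid cycle genes, is among the 8. GLUL, SOX9 and CA2, named after their values were seen, did not pass (limma adjusted p = 0.148, 0.0954 and 0.462). WIF1, an inhibitor of Wnt signals, averaged 174 ± 21.2 in the central and 489 ± 24.1 in the peripheral libraries, and VIM, the filament protein vimentin, 134 ± 16.5 and 458 ± 55.9. Between peripheral and whole retina, WIF1 averaged 489 in peripheral and 460 in whole retina (limma adjusted p = 0.681), while VIM was lower, at 458 in peripheral and 1182 in whole retina (limma adjusted p = 0.00018). Of the 11, limma called 2 lower and 0 higher in peripheral than in whole retina, with 2 higher at an unadjusted p under 0.05. In that comparison 24.3% of all tested genes were called lower. SPON1, also a glial marker, was lower in central retina by 0.63 log2 units (limma adjusted p = 0.00217).

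Ciliary body and vitreous markers (4 of 6) summed to 1.78 to 5.80 in the central and 46.9 to 124 in the peripheral libraries, and 4 of 4 were lower by limma. For this count and those of the stroma and rod lists below, the share lower over all tested genes was 8.76%. TTR is known in ciliary epithelium too. OPTC, the vitreous protein opticin, was at 0.10 to 0.24 in the central and 8.43 to 71.95 in the peripheral libraries. COL9A1 was at 0.36 to 4.42 in the central and 19.17 to 26.98 in the peripheral libraries. The spread between peripheral libraries was 8.53 times for OPTC, 2.17 for ZIC1, 2.06 for COL2A1 and 1.41 for COL9A1, beside 1.52 times for TTR. COL2A1, COL9A1 and ZIC1 were lower as well (limma adjusted p = 5.2e-05, 0.000147 and 0.000225). The choroid and stroma list had 2 of 8 lower, KDR and LUM (limma adjusted p = 0.0321 and 0.0338), and that count was 0 without central retina replicates 3 or 4 or peripheral retina replicates 1 or 2. COL1A2 and DCN did not pass (limma adjusted p = 0.0822 and 0.106), but with 0.1 added before the logarithm both were lower (limma adjusted p = 0.00973 and 0.0207) and the count was 4. Rod genes summed to 10879 to 19106 in the central and 17748 to 26142 in the peripheral libraries, with 5 of 9 lower by limma, among them CNGA1, SAG, NR2E3 and GNGT1 (limma adjusted p = 0.00187, 0.0202, 0.0235 and 0.0305). The rod count was between 1 and 3 after quantile normalization and without 5 single libraries, with 1 left without peripheral retina replicate 2.

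Patterns across the 11 libraries were compared by Pearson's r of the log2 values, which here mostly reflects the 4 tissue levels and is given as a description. STRA6, RDH5 and RGR were each other's nearest genes among 9768 eligible entries, with r of 0.997 for STRA6 with RDH5 and 0.992 for both with RGR. The nearest to TTR were the zinc transporter gene SLC39A12 (0.994) and STRA6 (0.991). SLC16A8 was nearest to STRA6 (0.984) and SLC6A20 (0.979). LRAT was nearest to BMP4 (0.990) and SLC16A12 (0.988), and KCNJ13 to MTM1 (0.996) and GOLIM4 (0.993).

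RDH10 and RPE65 had other neighbours. RDH10 was nearest to TRIM24 (0.979) and PRSS35 (0.977), and PRSS35 averaged 17.2 ± 5.51 in central, 67.6 ± 10.4 in peripheral and 51.0 ± 0.27 in whole retina. RPE65 was nearest to CPXM2 (0.998) and CMAH (0.997), and CPXM2 averaged 0.20 ± 0.048 in central, 0.47 ± 0.24 in peripheral and 26.1 ± 2.67 in whole retina. With the mean of the other 8 members, r was 0.970 or more for 7 genes, 0.851 for RPE65 and 0.698 for RDH10. For the row RPE, r with the mean of the 9 members was 0.2. These r values take RPE65 and RPE as listed, and whether their entries were exchanged in the regional tables cannot be told. The genes nearest to the mean of the members were ENPP2, which encodes autotaxin, SLC39A12, GOLIM4, METTL7B and C13H2orf40, at r of 0.993 or 0.994.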

How the data were processed

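The authors deposited 1 table per library with 1 normalized signal value per gene; per the file headers these are gene-level values of 1 library, and how they were normalized is not stated. GSNAP, an aligner, and HTSeq, a read counter, are named in the submitters' processing notes without version; the genome build is not given in the sources used here, and coordinates are left out. Of 13083 entries, 27 without a number and 61 exact duplicates were dropped. Member values carry 2 decimals, so no reads could be recovered. Of 12976 names, 9490 match RefSeq symbols (assembly T2T-MFA8v1.1), the 9 members among them.

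Values were tested as log2(value + 1) in limma 3.58.1 (R 4.3.3) with a variance trend, over 11 libraries in 4 groups of 1 fit, for the 11933 genes whose mean reached 1 in any group. Tests are two-sided, with Benjamini and Hochberg adjustment within each of 6 comparisons and a threshold of 0.05. Groups of 2 libraries borrow their spread from the others. The method was also run on simulated data with independent values and few changed genes. That setting is simpler than these data, so it does not vouch for the counts given here. From each marker list up to 4 genes with the smallest p between the regions are named, and up to 5 by likeness. One gene that this rule names is not reported here. The members and lists were chosen with earlier results of these data known. Alternatives covered pseudocount, filter, scaling, libraries in the fit, variance trend, shared names, replicate block and single libraries. Plots and tables used numpy 2.4.6, scipy 1.17.1, pandas 2.3.3 and matplotlib 3.10.9.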

Additional observations from a re-analysis of the deposited data

Results flagged for a closer look

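Among 44 genes checked in the 4 central libraries, 5 had a library far from the other 3, where chance flags about 1 in 20. KCNJ13 was 2.71 in central retina replicate 2, against 0.77 to 1.05 in the others. The row RPE was 33.48 in the same library, against 8.35 to 11.13. COL9A1 was 4.42 and CLDN19 1.28 there, the highest central values of these genes. WIF1 was 142.46 in central retina replicate 4, the lowest of the 4.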

How the results depend on the processing

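Over 22 alternatives, 11 of them leaving out 1 library, 1170 of 1188 values for single members kept their direction and their side of the threshold. The count of members called was 8 or 9 for central against peripheral retina, 9 for central against whole retina and whole eye, 7 or 8 for peripheral against whole retina, 6 to 8 for peripheral retina against whole eye and 0 for whole retina against whole eye. Of the 18 other values, 9 lost a call, 6 gained one and 3 turned in direction. The causes were not tested. Leaving out 1 library of a group of 2 leaves a lone library that is assumed to vary like the other groups.

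Directions that turned, none of them a call on a member, were these. After quantile normalization TTR was 0.055 in whole retina minus whole eye, and BSG −0.012 in central minus peripheral retina. With single libraries left out, whole retina minus whole eye ran from −0.002 to 0.617 for RDH10 (lowest without whole eye replicate 1) and from −0.22 to 0.655 for SLC16A8 (lowest without whole eye replicate 2). With the rows exchanged, RPE was −1.14 in peripheral minus whole retina and −1.39 in peripheral retina minus whole eye. In central minus peripheral retina BFSP2 ran from −0.096 to 0.024 and KRT12 from −0.837 to 0.014, both highest without peripheral retina replicate 3.

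Whether the replicate numbers pair the samples is not known, as the labels give no animal. Deviations of same-numbered central and peripheral libraries correlated at −0.138, −0.061 and 0.357, which cannot decide it with so few libraries. With the replicate block, 8 members were called in central minus peripheral retina and 8 in peripheral minus whole retina; RPE turned to 0.16 in central minus whole retina, the peripheral call on SLC16A8 against whole eye was lost (limma adjusted p = 0.0665), and RDH10 passed there (0.041). Quantile normalization moved the median log2 difference of all genes from −0.105 to 0.112 for central minus whole retina, and by over 0.1 in each comparison of a region with a whole tissue. In peripheral retina against whole eye limma called 1471 genes higher and 3296 lower as deposited, 2261 and 2558 after median of ratios scaling, and 3375 and 2174 after quantile normalization. In central retina against whole eye it called 2509 and 4083 as deposited, 3251 and 3210 after median of ratios scaling, and 3940 and 2810 after quantile normalization. In central retina against whole retina it called 2257 and 3549 as deposited, 2746 and 3087 after median of ratios scaling, and 3645 and 2572 after quantile normalization. Between the regions it called 2538 genes in either direction, against 1328 without peripheral retina replicate 2 and 1654 without central retina replicate 4. In whole retina against whole eye it called 271, against 143 with a minimum group mean of 5, 170 with these libraries alone and 784 without whole retina replicate 2.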

Other observations

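SLC16A8 belongs to the monocarboxylate transporters, and a list of relatives and accessory proteins was set beside it. Of 4 tested genes in that list, limma called 2 higher and 0 lower in central relative to peripheral retina, with 0 lower at an unadjusted p under 0.05. Over all 11933 tested genes, limma called 1493 higher in central retina. SLC16A3, a lactate transporter of glycolytic cells, averaged 50.7 ± 9.84 in central retina (SD, n = 4) and 14.2 ± 2.61 in peripheral retina (SD, n = 3; limma adjusted p = 7.68e-05). EMB, the accessory protein embigin, averaged 4.52 ± 1.18 in the central and 1.86 ± 0.54 in the peripheral libraries (limma adjusted p = 0.00563). SLC16A1 averaged 59.9 ± 10.8 and 69.2 ± 13.2 (limma adjusted p = 0.39), and BSG, the accessory protein basigin, 355 ± 55.5 and 330 ± 54.8 (limma adjusted p = 0.662). SLC16A7 was listed at 0 in all 11 libraries. SLC16A12, a family member outside the list that is near LRAT in its pattern, was at 0.23 to 0.82 in the central and 1.34 to 1.52 in the peripheral libraries.

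By limma 0 of 5 lens and cornea genes passed between the regions, also at an unadjusted p under 0.05, and in whole retina 5 of 5 were lower than in whole eye. Of all 11933 tested genes, limma called 251 lower in whole retina than in whole eye.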
